A study of Mus musculus with 12 samples.

Results

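Microglia and macrophage genes were followed through bulk RNA-seq of the mouse dentate gyrus, the hippocampal region that receives input from the entorhinal cortex and holds the granule cells. The set holds 31 genes of the 52636 listed in each of the 2 deposited count tables. It was put together from genes known to be expressed by microglia and other tissue macrophages, with earlier results of these data known. Its shares of calls beside those of all genes carry that limit. Genes were matched by symbol, and all 31 were present in both tables. All 31 also had enough counts to be tested in every comparison. Each gene was followed in CPM, its counts scaled to the same total in every library, across 4 groups of 3 libraries.

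The labels give total RNA as the molecule, dentate gyrus as the tissue and C57BL/6 as the strain of every library. WT and KO, the latter a knockout of Fst, formed one table. The other table held KO mice given AAV9-CB::GFP, an adeno-associated viral vector carrying green fluorescent protein (GFP vector), and mice labelled OE that received AAV9-CB::Fst (Fst vector), where Fst encodes follistatin, a secreted protein that binds activins. The labels give no age, knockout allele, vector dose or time after injection, and the genotype beneath OE is not stated. They also do not say whether a library came from 1 mouse or from several, so p-values measure the spread between libraries. No group labelled WT received a vector, and all vector libraries stood in their own table, so that vector and table cannot be told apart in any comparison across them.

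Microglia are the resident macrophages of the brain parenchyma. They enter the brain early in development, are kept alive by signalling through the receptor Csf1r, and hold a surveying state marked by receptors such as P2ry12, Tmem119 and Cx3cr1. They make C1q, the molecule that starts the classical complement cascade and tags synapses and debris, and they take up and degrade material through Fc receptors, Trem2 and its adaptor Tyrobp, and lysosomal proteins. When microglia leave the surveying state, levels of the receptors and of the complement and lysosomal genes are known to move separately.

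Library totals ran from 8081824 to 11331337 counts, and 3 counts corresponded to between 0.265 and 0.371 CPM. Fst itself followed the labels. It had 34, 33 and 51 counts in WT, 2, 4 and 2 in KO, 0, 1 and 0 in the GFP vector group, and 2078, 1870 and 1497 in the Fst vector group. The titles name the libraries M1, F1 and M2 in the table without vector and M1, M2 and F in the vector table. Titles and descriptions gave different sexes for 4 libraries of the table without vector, and counts of Xist and Ddx3y matched the titles in each. In bulk tissue, fewer cells of a type and less RNA per cell cannot be told apart, and this holds for every value that follows. One library stood apart before any group was compared. GFP vector F had the highest CPM of all 12 libraries for 20 of the 31 members, and it is left out in turn beside some of the results it touches.

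Levels of different genes were set beside one another per kilobase of exon in WT, where the order of the 31 genes ran over a wide range. Exon length was that of all annotated exons of a gene merged, such as 18313 bases for Ptprc and 7055 for Irf8. The order therefore also depends on the annotation. C1qa, the A chain of C1q, was highest at 40.5 ± 3.79 CPM per kilobase (SD, n = 3). The lysosomal protease gene Ctss followed at 32.1 ± 1.86 and C1qb at 29.1 ± 1.72, 2 neighbours whose intervals of 1 SD overlapped. C1qc stood at 17.3 ± 0.268, above Csf1r at 12.2 ± 0.185 and Tyrobp at 10.97 ± 1.25, which again overlapped. Tmem119 at 10.02 ± 0.717 and P2ry12 at 9.34 ± 0.619 were the next 2 genes and overlapped as well. The lowest 2 were Irf8, a transcription factor of the myeloid lineage, at 0.545 ± 0.0215 and Ptprc, the pan-leukocyte surface phosphatase CD45, at 0.138 ± 0.0366. Each of the 31 genes had at least 17 counts in every library. The sum of the 9 monocyte and neutrophil markers lay between 0.105 and 0.971 CPM without vector and between 0.292 and 1.36 CPM with vector. The 10 markers of border-associated macrophages, which sit at vessels and meninges, summed to between 15.03 and 22.9 CPM without vector and between 12.2 and 24.2 CPM with it. Most of that sum was the single gene Stab1, at 12.1 to 15.7 CPM without vector and 9.92 to 17.4 CPM with it.

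**Figure D1:**
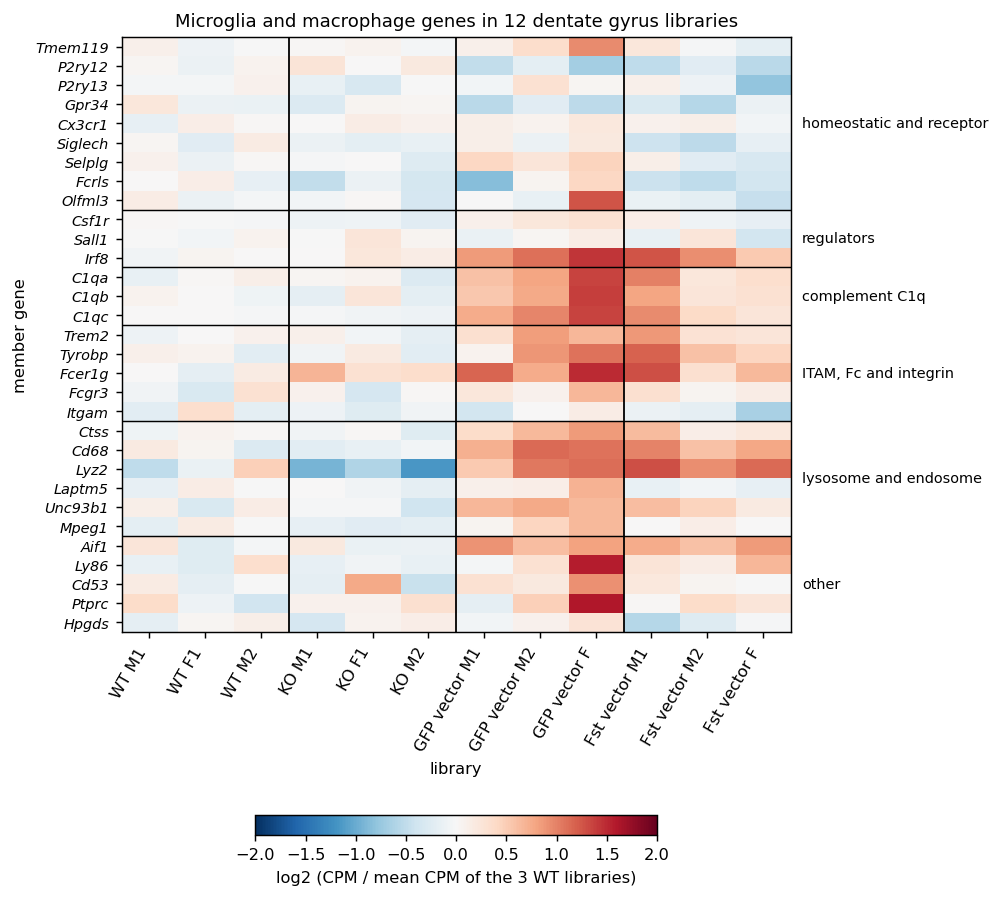
The 31 genes (rows, grouped by role) in 12 libraries (columns), coloured by the log2 ratio of CPM to the mean CPM of the 3 WT libraries (red higher, blue lower). The C1q, Cd68, Lyz2 and Irf8 rows are red in the 6 vector libraries, the C1q rows most deeply in GFP vector F, while the P2ry12 row is blue there and the Cx3cr1 row stays near white.

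Several of the genes lie beside each other. The 3 C1q genes form a cluster on chromosome 4 (GRCm38), where C1qa spans 136895917 to 136898803 on the minus strand, 2852 bases separate it from C1qc, and 3617 bases separate C1qc from C1qb. P2ry12, which spans 59216272 to 59262871 on the minus strand of chromosome 3, lies 5390 bases from P2ry13. The sources used here do not say whether the counting used strand. For P2ry12, 9 exon bases are shared with Med12l on the opposite strand.

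The PU.1 factor, encoded by Spi1, drives the macrophage lineage and is known to bind purine-rich sites. Promoter windows from RefSeq (GRCm38.p6, 250 bases before to 50 bases after the start of the gene) were matched by symbol for 24 of the 31 genes. The letters AGGAAGT, a core that PU.1 is known to bind, were searched on both strands. They were found in 10 of the 24 windows (41.7%), against 10.7% of the 27025 genes with a window. The 10 genes were C1qb, C1qc, Cd53, Ctss, Fcrls, Hpgds, Lyz2, P2ry12, Ptprc and Sall1. The longer GAGGAAGT, whose matches are all matches of the shorter letters too, was in 4 of 24 windows (16.7%) against 3.69% of all genes. CACGTG, an E-box, was in 2 windows (8.33%) against 8.09%. A match describes letters and not a bound site. The 250 bases before the start are shown for 4 genes, 3 of which were higher and 1 of which was lower in the vector libraries, with the matching letters in capitals, each read 5′ to 3′ along the strand of its gene.
C1qb (chr4:136886201-136886450, minus strand): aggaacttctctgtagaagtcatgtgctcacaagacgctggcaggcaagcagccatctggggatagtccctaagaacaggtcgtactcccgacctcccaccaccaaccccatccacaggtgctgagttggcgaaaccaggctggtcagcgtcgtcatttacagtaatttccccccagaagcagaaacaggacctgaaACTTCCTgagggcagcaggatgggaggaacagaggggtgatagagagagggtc
C1qc (chr4:136892915-136893164, minus strand): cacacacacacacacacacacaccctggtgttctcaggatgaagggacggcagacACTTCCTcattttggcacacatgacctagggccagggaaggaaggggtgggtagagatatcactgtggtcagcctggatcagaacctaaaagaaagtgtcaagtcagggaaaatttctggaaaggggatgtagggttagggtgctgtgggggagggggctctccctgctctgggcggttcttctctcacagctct
Lyz2 (chr10:117282273-117282522, minus strand): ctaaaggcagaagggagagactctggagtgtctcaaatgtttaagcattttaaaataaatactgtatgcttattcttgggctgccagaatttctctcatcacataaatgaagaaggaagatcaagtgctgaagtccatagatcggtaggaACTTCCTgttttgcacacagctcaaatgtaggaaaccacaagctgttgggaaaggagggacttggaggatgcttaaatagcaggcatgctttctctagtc
P2ry12 (chr3:59262986-59263235, minus strand): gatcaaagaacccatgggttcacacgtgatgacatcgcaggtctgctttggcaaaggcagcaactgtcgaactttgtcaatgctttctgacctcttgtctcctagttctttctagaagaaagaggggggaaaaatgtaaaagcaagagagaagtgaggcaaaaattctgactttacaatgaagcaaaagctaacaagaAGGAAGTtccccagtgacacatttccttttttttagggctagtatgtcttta
The capitals begin 53 bases before the start in C1qb, 195 in C1qc, 100 in Lyz2 and 52 in P2ry12. The first 3 hold ACTTCCT, the letters of the other strand, and P2ry12 holds AGGAAGT itself. Among the genes that rose with vector, 4 of 9 with a window held the letters. P2ry12 was the only gene with a window among those that fell, and 5 of the 14 other genes with a window held them.

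The comparison of the 6 vector libraries with the 6 libraries without vector had the most calls among these genes. All 3 C1q chains, 4 of 6 lysosomal and endosomal genes and 3 of 5 Fc receptor, ITAM adaptor and integrin genes rose, and none of the 9 homeostatic and receptor genes did. In a single fit of all 12 libraries by edgeR's quasi-likelihood test with Benjamini-Hochberg adjustment, 12 of the 31 genes were higher and 2 lower at an adjusted p under 0.05. Over all 15632 genes tested, 24.5% passed, 12.6% higher and 11.9% lower. The median log2 change of the 31 genes was 0.26, beside 0.01 over all genes tested, and it was 0.12 without GFP vector F, when 12 were higher and 1 lower. That fit counts the 6 vector libraries as separate, although same-named ones deviated together. With each same-named pair summed to 1 sample, a setting chosen after seeing the data, 13 of the 31 were higher and 1 lower. In 9 genes all 6 vector libraries lay above all 6 others, where 7.01% of all genes did so, and in 1 gene all lay below, where 4.25% did so.

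All 3 chains of C1q rose. C1qa stood at 37.8, 42.9 and 45.5 CPM in WT and at 43.4, 44.1 and 34.7 CPM in KO, against 62.9, 72.8 and 108 CPM with the GFP vector and 84.4, 49.4 and 52.9 CPM with the Fst vector. Every vector library was above every library without vector, and GFP vector F was the highest of all. The log2 change was 0.75 ± 0.16 (SE, adjusted p = 0.0080).

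C1qc stood at 33.7, 33.6 and 32.7 CPM in WT and at 32.8, 31.6 and 31.2 CPM in KO, against 55.9, 65.5 and 85.1 CPM with the GFP vector and 64.2, 43.5 and 39.5 CPM with the Fst vector. The groups again did not overlap, and the 6 libraries without vector lay close together. The log2 change was 0.81 ± 0.12 (adjusted p = 8.70e-04). C1qb stood at 33.4, 31.9 and 29.7 CPM in WT, 27.8, 37.6 and 27.7 CPM in KO, 46.0, 53.6 and 82.4 CPM with the GFP vector, and 54.5, 37.4 and 39.0 CPM with the Fst vector. Fst vector M2 fell just under KO F1, the one overlap in the C1q chains, and the log2 change was 0.69 ± 0.15 (adjusted p = 0.0079). Without GFP vector F the 3 log2 changes were 0.62 for C1qa, 0.54 for C1qb and 0.72 for C1qc, and each was still past the threshold.

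The lysosomal and endosomal genes rose in 4 of 6. Lyz2, the lysozyme of macrophages, stood at 2.73, 3.54 and 5.38 CPM in WT, 2.04, 2.57 and 1.73 CPM in KO, 5.57, 8.08 and 8.40 CPM with the GFP vector, and 9.53, 7.39 and 8.52 CPM with the Fst vector. Its lowest vector library was close to its highest WT library, but no library crossed over. The log2 change of 1.43 ± 0.19 was the largest of the 31 (adjusted p = 3.35e-04). The neighbouring paralog Lyz1, which could share reads with Lyz2, had 1 count in all 12 libraries together.

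Cd68, a lysosomal membrane glycoprotein used to mark phagocytic macrophages, stood at 6.19, 5.68 and 4.50 CPM in WT, 4.73, 4.93 and 5.28 CPM in KO, 8.91, 11.98 and 11.5 CPM with the GFP vector, and 10.9, 8.20 and 9.30 CPM with the Fst vector. The vector libraries were all higher, in both vector groups (log2 change 0.93 ± 0.14, adjusted p = 5.96e-04). Ctss, a protease that trims antigens and matrix, stood at 40.8, 45.8 and 44.0 CPM in WT, 41.4, 44.2 and 36.7 CPM in KO, 56.2, 68.4 and 78.5 CPM with the GFP vector, and 67.5, 47.8 and 50.6 CPM with the Fst vector. Its groups did not overlap (log2 change 0.51 ± 0.10, adjusted p = 0.0037). Unc93b1, which carries Toll-like receptors to endosomes, stood at 12.1, 9.01 and 12.3 CPM in WT, 10.96, 10.9 and 8.43 CPM in KO, 17.7, 18.9 and 17.4 CPM with the GFP vector, and 17.0, 15.2 and 12.6 CPM with the Fst vector. Fst vector F was only just above the highest WT library (log2 change 0.60 ± 0.12, adjusted p = 0.0031). The other 2 did not pass, with a log2 difference of 0.29 for Mpeg1, which encodes the pore-forming perforin-2 (adjusted p = 0.0559), and of 0.12 for Laptm5, a lysosomal membrane protein of blood-lineage cells (adjusted p = 0.443).

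**Figure D2:**
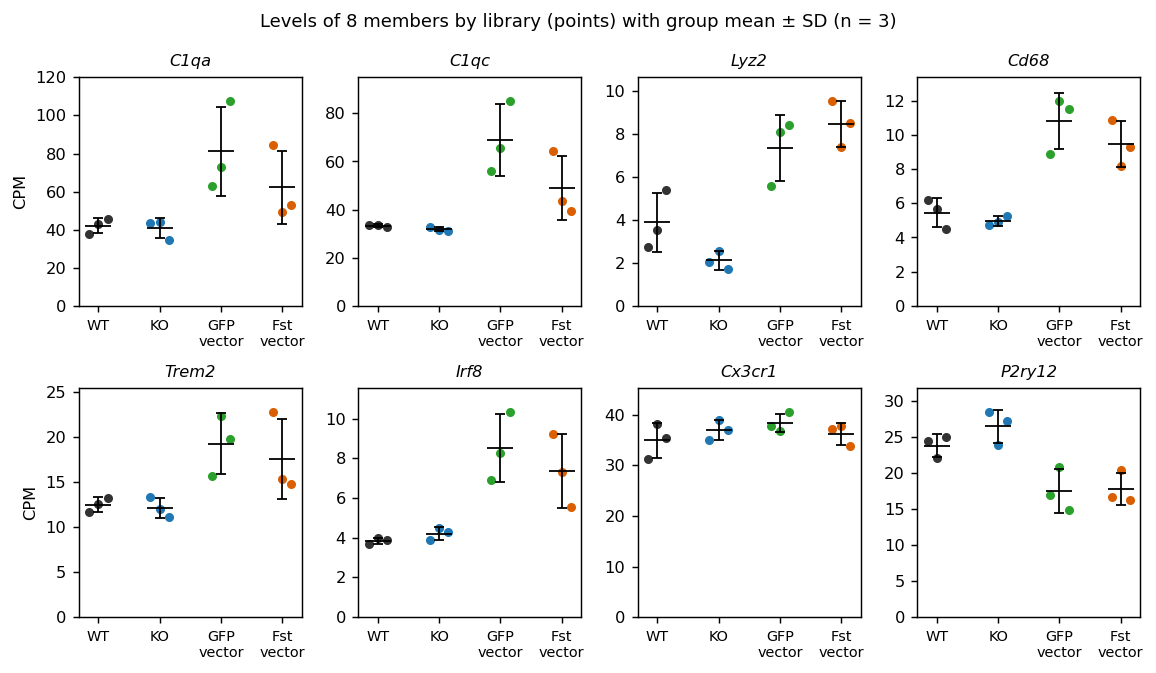
CPM (vertical axes, from 0, 1 scale per gene) of 8 genes in each library (points) of the 4 groups, with the group mean ± SD (lines, n = 3). C1qa, C1qc, Lyz2, Cd68, Trem2 and Irf8 are higher in all 6 vector libraries, P2ry12 is lower in all 6, and Cx3cr1 lies between 31.3 and 40.5 CPM throughout.

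Of the 5 genes of the Fc receptor, ITAM adaptor and integrin group, 3 rose. Trem2, a receptor for lipids and lipoproteins, stood at 11.7, 12.5 and 13.2 CPM in WT, 13.3, 11.99 and 11.1 CPM in KO, 15.6, 22.3 and 19.7 CPM with the GFP vector, and 22.7, 15.3 and 14.7 CPM with the Fst vector. No vector library fell into the range of the others (log2 change 0.55 ± 0.13, adjusted p = 0.0081).

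Its adaptor Tyrobp stood at 7.87, 7.72 and 6.35 CPM in WT, 6.98, 8.24 and 6.30 CPM in KO, 7.67, 13.4 and 15.6 CPM with the GFP vector, and 16.5, 11.04 and 9.85 CPM with the Fst vector. GFP vector M1 was within the range of the libraries without vector and the other 5 vector libraries were above it (log2 change 0.74 ± 0.18, adjusted p = 0.0095). Fcer1g, the shared gamma chain of Fc receptors, ran from 3.43 CPM through a median of 4.57 to 6.23 CPM without vector, and from 4.86 through 7.59 to 10.97 CPM with it. The ranges overlapped (log2 change 0.73 ± 0.19, adjusted p = 0.0133). Fcgr3, an Fc receptor for IgG, and Itgam, the integrin CD11b, had log2 differences of 0.26 and -0.13 and did not pass (adjusted p = 0.207 and 0.575). Itgam shares 3450 of its 5024 exon bases with Gm49368 on the same strand, which had 0 counts in all 12 libraries. How reads in shared bases were counted is not known, which limits the values of Itgam.

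The 9 homeostatic and receptor genes had a median log2 difference of -0.01, and none of them passed as higher. This value pools the 2 vector groups. The median of the 9 was 0.24 in GFP vector against KO and -0.44 in Fst vector against GFP vector. P2ry12, the ADP receptor by which microglial processes find injured cells, stood at 24.4, 22.0 and 25.0 CPM in WT, 28.4, 23.9 and 27.1 CPM in KO, 17.0, 20.7 and 14.8 CPM with the GFP vector, and 16.7, 20.4 and 16.3 CPM with the Fst vector. All 6 vector libraries lay under all 6 others, and GFP vector F, the highest library for most of the genes, was the lowest here. The log2 change was -0.54 ± 0.10 (adjusted p = 0.0022). Med12l, within which P2ry12 lies on the opposite strand, also had lower values with vector, between 25.8 and 59.7 CPM against 76.3 to 83.1 CPM, and its part in the P2ry12 result was not tested.

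Gpr34, a receptor for lysophosphatidylserine, ran from 8.06 through 9.48 to 11.3 CPM without vector and from 6.58 through 7.31 to 8.97 CPM with it. Its ranges overlapped, its log2 change was -0.37 ± 0.13 (adjusted p = 0.0481), and the call was lost in 16 of 19 other settings, without GFP vector F among them (adjusted p = 0.0749). Cx3cr1, the receptor for the neuronal chemokine Cx3cl1, ran from 31.3 through 36.2 to 38.9 CPM without vector and from 33.8 through 37.5 to 40.5 CPM with it. These nearly coincide, with a log2 difference of 0.02 ± 0.07 (adjusted p = 0.861). The remaining 6 also failed the test. Their log2 differences were 0.22 for Tmem119, 0.16 for Olfml3, 0.13 for Selplg, -0.01 for P2ry13, -0.10 for Siglech and -0.11 for Fcrls.

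Of the 3 regulators, Irf8 alone passed. It stood at 3.67, 3.97 and 3.88 CPM in WT, 3.87, 4.50 and 4.27 CPM in KO, 6.93, 8.28 and 10.3 CPM with the GFP vector, and 9.23, 7.29 and 5.54 CPM with the Fst vector. The libraries without vector were close together and all vector libraries were higher, by a log2 change of 0.95 ± 0.16 (adjusted p = 0.0013). Csf1r, the receptor that microglia need to survive, ran from 60.7 through 68.3 to 71.9 CPM without vector and from 63.3 through 76.7 to 87.0 CPM with it. Its log2 difference of 0.13 ± 0.07 did not pass (adjusted p = 0.185), nor did that of -0.10 ± 0.11 for Sall1, a transcription factor of microglial identity (adjusted p = 0.525). Csf1r shares 873 exon bases with Hmgxb3 on the opposite strand, which had between 39.0 and 43.1 CPM without vector and 37.0 to 42.6 CPM with it.

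The last 5 genes are general myeloid or leukocyte genes. Aif1, which encodes the microglial stain IBA1, stood at 3.78, 2.68 and 3.09 CPM in WT, 3.65, 2.89 and 2.95 CPM in KO, 5.94, 4.87 and 5.53 CPM with the GFP vector, and 5.30, 4.76 and 5.76 CPM with the Fst vector. Both vector groups were above all others (log2 change 0.72 ± 0.16, adjusted p = 0.0052). The log2 differences of Ly86, Ptprc, Cd53 and Hpgds were 0.62, 0.41, 0.20 and -0.10, and none passed. Ly86 and Ptprc had their highest value in GFP vector F, 20.8 and 7.63 CPM, where no other library was above 11.1 and 3.51 CPM.

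Ratios within a library do not depend on its total. The 3 C1q chains together had between 3.45 and 4.93 counts for each count of P2ry12 in the 6 libraries without vector, and between 6.40 and 18.6 in the vector libraries. For each count of Cx3cr1 they had between 2.53 and 3.35 without vector and between 3.45 and 6.80 with it. Counts of the 6 lysosomal genes for each count of the 9 homeostatic genes ran from 0.589 to 0.716 without vector and from 0.844 to 0.936 with it. These 3 ratios did not overlap between the tables. Counts of Lyz2 for each count of Cx3cr1 did, at 0.0466 to 0.152 without vector and 0.147 to 0.256 with it. The C1q chains, Lyz2 and other lysosomal genes had already been called higher in these same libraries, and P2ry12 lower. A separation was therefore favoured, and the ratios are no further support for those calls. Summed over the 31 genes, CPM ran from 539.7 to 552.5 in WT, from 496.1 to 549.6 in KO, from 645.0 to 928.0 in the GFP vector group and from 557.2 to 710.1 in the Fst vector group.

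Markers of other cells moved with the tables too. The 10 oligodendrocyte markers summed to between 990.4 and 1079 CPM without vector and between 1201 and 1932 CPM with it, and 9 of the 10 were higher at an adjusted p under 0.05. The 10 astrocyte markers summed to between 4554 and 4721 CPM without vector and between 4029 and 8897 CPM with it, and the top value was GFP vector F. The 10 granule cell markers summed to between 2538 and 2761 CPM without vector and between 1957 and 2715 CPM with it, where the lowest was GFP vector F. The 13 lymphocyte markers summed to at most 2.46 CPM without vector and to between 4.67 and 123.9 CPM with vector, and 2 of the 3 that could be tested were higher. None of the 13 could be tested in KO against WT, so a rise was favoured for these 3. Over all genes 12.6% were higher. Genes of red blood cells summed to between 32.5 and 54.4 CPM without vector and to between 42.9 and 91.6 CPM with it. The 10 meningeal fibroblast markers reached 117.0 CPM in GFP vector F, against at most 71.2 CPM in any other library. No gene of these lists was at 0 in all 12 libraries, and their part in the microglial results was not tested.

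The comparison of GFP vector with KO holds the labelled genotype the same, although vector and table still cannot be told apart, and it shares libraries with the comparison above and with both comparisons within the tables. By the same edgeR test 9 genes were higher and 1 lower, where 3.58% of all genes passed, 2.12% higher and 1.46% lower. The median log2 difference of the 31 genes was 0.57, beside 0.01 for all genes. In 19 genes the 3 GFP vector libraries lay above the 3 KO libraries, against 16.1% of all genes.

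All 3 C1q chains rose here too, by log2 changes of 0.98 ± 0.23 for C1qa, 0.95 ± 0.22 for C1qb and 1.09 ± 0.18 for C1qc (adjusted p = 0.0442, 0.0390 and 0.0131). Of the 6 lysosomal genes 5 rose, from 0.57 ± 0.15 for Mpeg1 (adjusted p = 0.0470) to 1.78 ± 0.28 for Lyz2 (adjusted p = 0.0131). Cd68, Unc93b1 and Ctss lay between them, with log2 changes of 1.10, 0.81 and 0.71. Irf8 rose by 0.997 ± 0.23 (adjusted p = 0.0348) and P2ry12 had a log2 change of -0.62 ± 0.14 (adjusted p = 0.0357). Of the 9 homeostatic and receptor genes, 7 had log2 differences above 0 and 2 below, with a median of 0.24. Only P2ry12 of the 9 passed. Selplg and Tmem119, at 0.44 and 0.48, did not (adjusted p = 0.0754 and 0.136). Tyrobp, Trem2 and Fcer1g did not pass here, at log2 differences of 0.76, 0.65 and 0.69 and adjusted p of 0.102, 0.0600 and 0.140. These calls rest on few libraries. Without KO M1 or without KO M2 no gene of the 31 passed and over all genes 7 and 10 passed, without KO F1 only 1 of the 31 did, and without GFP vector F 4 did, with a median of 0.27. The 4 without GFP vector F were C1qc, Cd68, Lyz2 and Unc93b1. The calls of C1qa, C1qb, Ctss, Mpeg1, Irf8 and P2ry12 were lost. Without GFP vector M2 the count that passed was 4, and without GFP vector M1 it was 16. The WT and Fst vector libraries are on neither side of this comparison but set the spread of its fit, and 5 of the 31 passed without any 1 WT library and 14 without Fst vector M1.

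In the knockout itself, without any vector, the 31 genes moved little. No gene passed in KO against WT by edgeR's quasi-likelihood test, where 0.0268% of all 14919 genes did. At an unadjusted p under 0.05 there were 3 of 31, against 5.96% of all genes, and DESeq2 called none of the 31 and had 1 under that unadjusted p. The median log2 difference was -0.05, beside 0.00 for all genes, and 9 of 31 were above 0, where 49.7% of all genes were. Without KO M2 the count above 0 was 15 and the median -0.01. In 1 gene KO lay wholly above WT and in 2 wholly below, beside 3.98% and 7.04% of all genes.

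Lyz2 had the largest difference. Its 3 KO libraries, at 2.04, 2.57 and 1.73 CPM, lay under its 3 WT libraries, at 2.73, 3.54 and 5.38 CPM, with WT M2 well above the other two. The log2 difference was -0.88 ± 0.29 (adjusted p = 0.616), from 61 counts at most in a library. Fcer1g stood at 6.23, 4.82 and 4.98 CPM in KO, above the 3.88, 3.43 and 4.32 CPM of WT (log2 difference 0.47 ± 0.22, adjusted p = 0.837). Fcrls, an Fc receptor-like gene of mouse microglia, stood at 13.9, 18.0 and 15.2 CPM in KO and at 19.6, 21.5 and 17.4 CPM in WT, with one overlap (log2 difference -0.29 ± 0.12, adjusted p = 0.786). Neither of these differences passed the test. P2ry12 and Csf1r had log2 differences of 0.17 ± 0.10 and -0.12 ± 0.07. Of P2ry12 the KO and WT libraries overlapped. For Csf1r the 65.9, 66.8 and 60.7 CPM in KO lay under the 71.9, 70.5 and 69.8 CPM in WT, a small gap with an adjusted p of 0.933. The C1q chains had log2 differences between -0.05 and -0.01.

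Between the Fst vector and the GFP vector, 29 of the 31 genes had lower fitted values with the Fst vector and 2 higher ones, where 51.0% of all genes had higher ones, and none of the 31 passed the test. Over all 15034 genes, 0.0798% passed, or 12 genes, and 150 genes passed when the replicate name was taken as a block, none of the 31 among them. At an unadjusted p under 0.05 there were 6 of the 31, all with lower values, where 5.16% of all genes were lower at that p. DESeq2 called none of the 31 and also had 6. The median log2 difference was -0.36, beside 0.01 for all genes. In 4 genes, Selplg, Laptm5, Siglech and Unc93b1, all Fst vector libraries lay below all GFP vector libraries, as did 6.01% of all genes.

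Selplg, the P-selectin ligand, stood at 36.5, 32.3 and 37.0 CPM with the GFP vector and at 29.7, 23.3 and 21.9 CPM with the Fst vector. The groups did not overlap, and the log2 difference was -0.53 ± 0.16 (adjusted p = 0.346). It was the one gene of the 31 that passed when the spread was shared over all 12 libraries (adjusted p = 0.0452). Laptm5 stood at 31.3, 32.1 and 47.5 CPM with the GFP vector and at 26.5, 28.0 and 26.1 CPM with the Fst vector, so that GFP vector F was far above the other 5 (log2 difference -0.50 ± 0.18, adjusted p = 0.435, and -0.27 without that library). Siglech, a sialic acid-binding lectin of microglia, stood at 12.002, 10.2 and 12.7 CPM against 8.35, 7.70 and 9.85 CPM, without overlap (log2 difference -0.47 ± 0.20, adjusted p = 0.513).

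Tmem119 stood at 24.7, 29.7 and 44.6 CPM with the GFP vector and at 27.2, 22.8 and 20.1 CPM with the Fst vector, and the groups overlapped (log2 difference -0.53 ± 0.23, adjusted p = 0.520, and -0.26 without GFP vector F). C1qc, whose libraries are given above, had a log2 difference of -0.52 ± 0.22 (adjusted p = 0.520, and -0.34 without GFP vector F), and Fst vector M1 was within the GFP vector range. The lead of GFP vector F was visible in most of these genes. It was the highest of the 6 vector libraries for 21 of the 31 genes, and Fst vector F was the lowest for 14. Without GFP vector F the median log2 difference was -0.18, and 1 of the 31 genes had an unadjusted p under 0.05. That count was 2 without Fst vector M2 or without Fst vector F, and 11 without GFP vector M1. Astrocyte markers were also highest in that library, at 8897 CPM against 4029 and 5660 CPM in the other GFP vector libraries, and their part in the result was not tested.

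**Figure D3:**
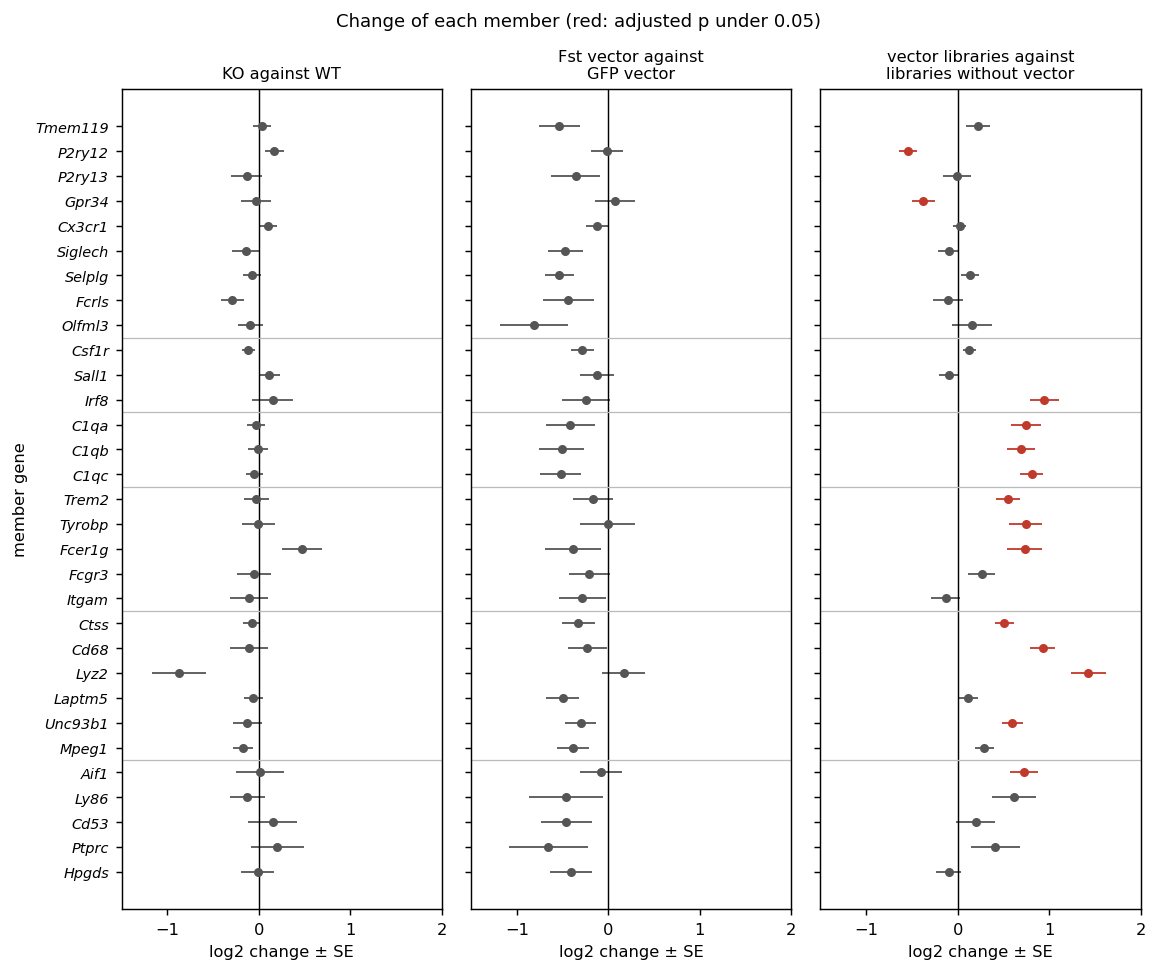
Log2 change ± SE (horizontal axes) of each of the 31 genes (rows) in KO against WT, Fst vector against GFP vector, and vector libraries against libraries without vector, red where the adjusted p is under 0.05. No point is red in the first 2 panels, and in the third 12 red points lie above 0 and 2 below.

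The difference between the 2 effects within the tables was tested as one contrast, in which the KO effect was subtracted from the effect of the Fst vector. No gene of the 31 passed by edgeR's quasi-likelihood test, where 0.281% of all genes did. At an unadjusted p under 0.05 there were 4 of 31 by edgeR and 4 by DESeq2, against 9.95% of all genes by edgeR. These were Lyz2 at 1.03 ± 0.38, Selplg at -0.47 ± 0.19, Fcer1g at -0.87 ± 0.38 and Tmem119 at -0.58 ± 0.26 on the log2 scale. Laptm5 followed at -0.45 ± 0.21. The smallest adjusted p among the 31 was 0.355, that of Lyz2. The KO effect is one of losing Fst and the vector effect one of adding it, so this contrast compares the 2 effects as coded and does not ask whether the effects of Fst itself differed.

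The other genes of the same pathways were then followed between vector libraries and libraries without vector. Disease-associated microglial genes are a program of lipid handling and phagocytosis described in neurodegeneration. Of its 16 genes listed, 14 could be tested, and 12 rose and none fell, with a median log2 change of 0.85. Over all genes 12.6% rose and 11.9% fell. Only 9 of the 16 had enough counts to be tested in KO against WT. Itgax, Spp1, Lgals3, Cd52 and Ccl6 passed the filter on low counts through the vector libraries, so a rise was favoured for them. Itgax, the integrin CD11c, rose by 2.22 ± 0.48 (adjusted p = 0.0050) and Spp1, osteopontin, by 1.98 ± 0.43 (adjusted p = 0.0053). Lgals3, the lectin galectin-3, rose by 1.97 ± 0.39 (adjusted p = 0.0032) and the protease gene Ctsb by 0.44 ± 0.08 (adjusted p = 0.0025). Itgax and Lgals3 had few counts, 82 and 102 in all 12 libraries together, and Spp1 had 181. Apoe, the most abundant gene of the list and one that astrocytes express strongly, rose by 0.50 ± 0.12 (adjusted p = 0.0103). Which cells gave the counts of this list and of those below cannot be told from bulk tissue. Markers of other cells moved in this comparison too.

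Of 30 further microglial genes 27 could be tested, and 7 rose and 2 fell, which is 33.3% called beside 24.5% of all genes. Blnk, a signalling adaptor, rose by 1.18 ± 0.21 (adjusted p = 0.0018), and Spi1, the gene of PU.1, by 0.88 ± 0.20 (adjusted p = 0.0076). Tgfbr1, a receptor for TGF-beta, which keeps microglia in their surveying state, had a log2 change of -0.74 ± 0.12 (adjusted p = 9.48e-04). Mertk, a receptor for uptake of dying cells that astrocytes also express and the most abundant gene of the list, had one of -0.61 ± 0.12 (adjusted p = 0.0034). In both of these all 6 vector libraries lay below the others.

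Of 9 other complement genes 7 were tested and 3 rose. C4b, the component cleaved next after C1, rose by 1.41 ± 0.29 (adjusted p = 0.0093), Serping1, the C1 inhibitor, by 1.23 ± 0.25 (adjusted p = 0.0036) and C3ar1, the receptor for C3a, by 0.93 ± 0.28 (adjusted p = 0.0245). C4b reached 239 CPM in GFP vector F, and without that library its log2 change was 1.13 and the call of C3ar1 was lost (adjusted p = 0.0564), as it was in 8 of 19 settings in all. Of 16 inflammatory genes only 6 had enough counts, and 2 rose, Socs3, a feedback inhibitor of cytokine signalling, by 2.29 ± 0.47 (adjusted p = 0.0061) and Tlr2, a receptor for bacterial lipoproteins, by 1.64 ± 0.44 (adjusted p = 0.0155). Tlr2 had 108 counts over the 12 libraries. The log2 changes of Socs3, Tlr2 and Serping1 were 1.64, 1.22 and 0.95 without GFP vector F, and each still passed. Tlr2 and C3ar1 had too few counts to be tested in KO against WT, so a rise was favoured for both. Ptgs2, the inducible cyclooxygenase gene that neurons also express and the most abundant of the list, did not pass (log2 difference 0.30 ± 0.35, adjusted p = 0.565).

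Of 8 genes of ligands that act on microglia, 2 rose and 2 fell, beside 12.6% and 11.9% of all genes. Gas6, a ligand of Mertk and Axl, rose by 0.46 ± 0.07 (adjusted p = 6.22e-04) and Cd200, a neuronal surface ligand, by 0.49 ± 0.10 (adjusted p = 0.0051). Csf1, a ligand of Csf1r, had a log2 change of -0.66 ± 0.13 (adjusted p = 0.0043) and Cx3cl1, the ligand of Cx3cr1, of -0.21 ± 0.06 (adjusted p = 0.0236). The call of Cx3cl1 was lost in 7 of 19 other settings. Its GFP vector libraries, at 538.2, 505.1 and 514.9 CPM, lay at or near the 508.6 to 554.3 CPM of the libraries without vector, and its Fst vector libraries, at 439.1, 396.0 and 419.0 CPM, lay below both. None of the 3 border macrophage genes that could be tested passed, and their log2 differences ran from -0.21, that of the most abundant of them, Stab1, to 0.50. Within the tables, no gene of any of these lists passed in KO against WT or in Fst vector against GFP vector by edgeR. In GFP vector against KO, 5 of the 14 disease-associated genes, 4 of the 27 further microglial genes, 2 of the 7 complement genes and 1 of the 8 ligands rose, and 1 further microglial gene fell, Tgfbr1, by 0.70 on the log2 scale. Over all genes 2.12% rose and 1.46% fell in that comparison. Itgax, Spp1 and Lgals3 were among the 5 disease-associated genes. They passed the filter on low counts through the vector libraries, so a rise was favoured for them here too. Itgax, Spp1, Lgals3, Ctsb, Spi1, C4b, Serping1, Gas6 and Tgfbr1 did not pass when any 1 of the 3 KO libraries was left out.

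**Figure D4:**
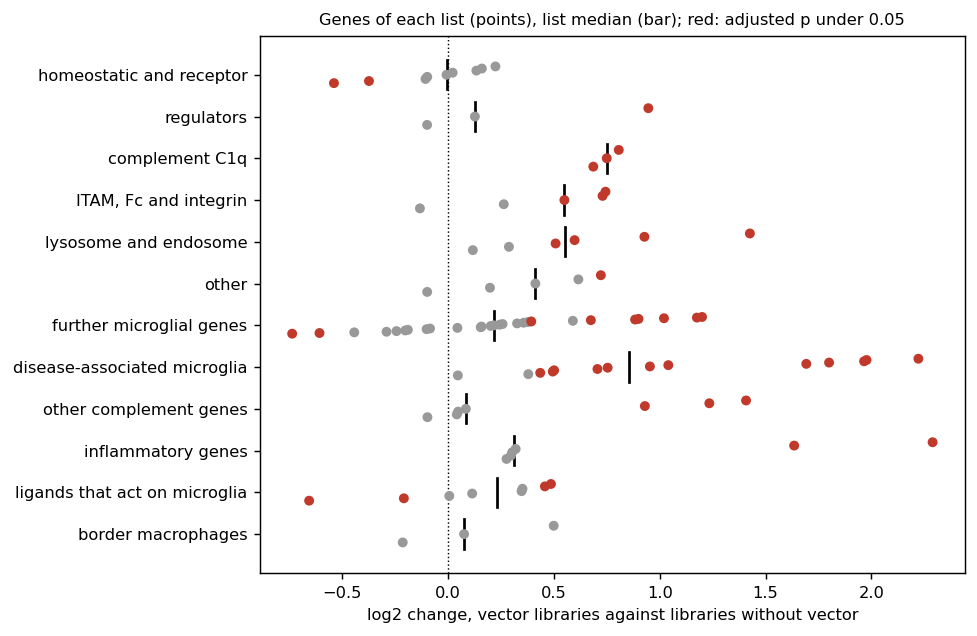
Log2 change between vector libraries and libraries without vector (horizontal axis) for each tested gene (points, red where the adjusted p is under 0.05) of the 6 role groups of the 31 genes and 6 related lists, with the median of each list (bar). All 3 complement C1q points and 12 of 14 disease-associated points are red and above 0, and the median of the homeostatic group is at -0.01. The disease-associated genes Itgax, Spp1, Lgals3, Cd52 and Ccl6 passed the filter on low counts through the vector libraries.

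When only the Fst vector group was compared with WT, a setting chosen after seeing the data, 4 of the 31 genes passed. Over all genes, 2140 of the 15632 tested passed, a share no smaller than that of the 31. Log2 differences were above 0 for 18 of the 31 genes, with a median of 0.04 beside 0.01 for all genes. Lyz2, Cd68 and Irf8 rose, by log2 changes of 1.07, 0.75 and 0.89, and P2ry12 had a log2 change of -0.46 (adjusted p = 0.0156, 0.0204, 0.0197 and 0.0413). The C1q chains had log2 differences of 0.52 for C1qa, 0.42 for C1qb and 0.52 for C1qc and did not pass in this smaller comparison (adjusted p = 0.154, 0.210 and 0.0656). Aif1, Fcer1g, Tyrobp, Trem2, Unc93b1, Ctss and Gpr34 did not pass in it either, with adjusted p from 0.0521 for Aif1 to 0.197 for Gpr34. Of the related lists, Itgax, Spp1, Lgals3, Spi1, C4b, Serping1, C3ar1 and Tlr2 lost their calls. Their adjusted p ran from 0.0696 for Lgals3 to 0.256 for C4b. Ctsb, Blnk, Socs3, Gas6, Cd200, Csf1, Cx3cl1, Tgfbr1 and Mertk kept theirs.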

How the data were processed

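Total RNA of 12 dentate gyrus libraries was sequenced, and the authors deposited raw counts per gene, by Ensembl identifier, in 2 tables of 52636 genes. The build is GRCm38 per the submitters' processing notes, and the sources used here give neither the aligner nor the counter. The rows that name no gene (6 and 12) held 0 counts. Library totals ran from 8081824 to 11331337. Symbols came from the GENCODE annotation. Groups came from the descriptions and replicate names from the titles.

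Counts were tested with edgeR 4.0.16 (R 4.3.3) by its quasi-likelihood test with TMM scaling, filterByExpr and robust fitting, and p-values were adjusted by Benjamini-Hochberg over all genes tested, with a threshold of 0.05. KO against WT and Fst vector against GFP vector were fitted on 6 libraries each. The vector comparison, GFP vector against KO and the difference of effects came from 1 fit of 12 libraries. CPM is counts over library totals. DESeq2 1.42.0, other scalings and filters, sex, the share of ribosomal RNA, replicate blocks and leaving out each library were the alternatives. On simulated data, genes changed 2-fold were recovered at 89.95% in KO against WT, 40.82% in Fst vector against GFP vector and 81% in the vector comparison.

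Same-named libraries of the vector table deviated together (r = 0.325 for M1, 0.138 for M2 and 0.39 for F) and were taken to pair, from the data and not from a label. Differently named ones there had r from -0.461 to 0.119, so that M2 was only just above them. Same-named libraries of WT and KO (r = 0.0607, 0.13 and -0.0805) lay within the range of differently named ones, -0.197 to 0.178, and were not taken to pair.

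Members and lists were chosen with earlier results of these data known. By rule, library values are given for up to 12 genes called in a comparison, or for the 5 with the smallest p where fewer than 5 were called. Of each related list, up to 4 called genes and the most abundant one are named.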

Additional observations from a re-analysis of the deposited data

How the results depend on the processing

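None of the genes picked by the rule above in a comparison changed direction in the settings run. Among all 31 genes some did: 9 were above 0 in KO against WT and 8 to 15 in other settings. In Fst vector against GFP vector 2 were above 0, and 2 to 4 in other settings. In the vector comparison 23 were above 0, 18 with Fst vector against WT alone and 22 to 25 in the other settings. Over all genes, KO against WT called 4, and 46 without a filter on low counts, 30 with sex as a term, 19 with the replicate block, 1 with the spread shared over 12 libraries and 2 to 17 when 1 library was left out. Fst vector against GFP vector called 12, and 250 by DESeq2, 230 without a filter, 132 with sex, 150 with the replicate block, 412 with the shared spread (where 1 of the 31 genes passed) and 1 to 29 when 1 library was left out. The vector comparison called 3837, and 2650 to 4375 when 1 library was left out, with 13 to 15 of the 31 genes. Fst vector against WT alone, chosen after seeing the data, called 2140 with 4 of the 31. GFP vector against KO called 559, and 1237 by DESeq2, 1190 without a filter and 7 to 1831 when 1 library was left out, with 0 to 16 of the 31. The difference of effects called 44, and 246 by DESeq2, 210 without a filter, 80 with sex, 289 with the replicate block and 13 to 183 when 1 library was left out. The cause was not tested. The replicate block, fitted for both comparisons within the tables and for the difference of effects, changed no call among the genes named in those. With same-named vector libraries summed, also chosen after seeing the data, the vector comparison called 3957 genes and 14 of the 31. Depth limits the low genes: Lyz2 had between 17 and 97 counts in a library, and Ptprc between 18 and 80.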
